A study of Arabidopsis thaliana with 48 samples.

Results

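The cyclins, cyclin-dependent kinases and mitotic kinases of Arabidopsis thaliana were followed through a multifactorial stress experiment in which whole seedlings met excess light, heat and salt, alone and together. The group held 37 genes, chosen by gene identifier from the 32824 distinct identifiers of the 2 deposited FPKM tables, by a rule that uses no measured value, although the group was proposed with earlier results of these data known. By the phase in which their products are known to act, 13 were G1 regulators (the 10 D-type cyclins, CDKA;1 and the transcription factors E2FA and E2FB), 2 were S-phase cyclins of the A3 type and 22 acted in G2 and mitosis (4 A2-type cyclins, CYCA1;1, 9 B-type cyclins, 4 B-type kinases, 3 Aurora kinases and KNOLLE). Of the 37 genes, 35 reached 1 FPKM in at least 3 libraries and were tested. The others were CYCD7;1 (AT5G02110), which was above 0 in 29 of 48 libraries and never above 0.524 FPKM, and CYCA2;1 (AT5G25380), which never exceeded 1.17 FPKM.

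Division in plants is driven by kinases that act only when bound to a cyclin. As background, D-type cyclins pair with CDKA;1 in G1 and phosphorylate the retinoblastoma protein RBR1, which frees E2F factors to switch on genes for DNA synthesis. A2, B1 and B2 cyclins then pair with CDKA;1 and with the plant-specific B-type kinases in G2 and mitosis, and many of these late genes carry the mitosis-specific activator (MSA) element, bound by MYB3R factors. Aurora kinases act on the spindle and the chromosomes, and KNOLLE is the syntaxin that fuses vesicles into the new cell plate. In a seedling these genes are transcribed mainly in the root and shoot meristems, in young leaf primordia and in the stomatal lineage.

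The 48 libraries came from Col-0 wild type (WT) and from a single T-DNA insertion line of the ethylene response factor gene RAP2.3, named rap2.3_1. Each genotype was grown for 6 days on medium with or without 50 mM NaCl and then either stayed in light of 50 µmol m-2 s-1 at 21 °C or was moved for 1.5 h to 700 µmol m-2 s-1 (excess light, EL), to 33 °C (heat, HS) or to both. Salt (S) was therefore present throughout growth while light and heat were short treatments. This gave 8 treatments, namely the control (CT), the single stresses EL, HS and S, the pairs EL+HS, S+HS and S+EL, and the triple stress S+EL+HS, each in 3 biological repeats of whole seedlings per genotype, so 16 groups in all. Values were deposited as FPKM, the number of sequenced fragments scaled to the length of the transcript and to the size of the library, in a separate table for each genotype. The transcript of the targeted gene was higher, not lower, in the insertion line, at 206 to 602 FPKM in its 24 libraries against 34.9 to 86.1 FPKM in the 24 WT libraries. The line is therefore called "labelled rap2.3" throughout, no direction of RAP2.3 function can be read from it, and genotype and table cannot be told apart. Replicates correlated at r = 0.9691 to 0.9895 on log2(FPKM + 1), FPKM summed to 765860 to 822875 per library, and the number of reads behind each value is unknown.

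As examples, upstream sequences are printed for late genes that carry the core of the MSA element and for an early gene that lacks it. They were picked for this, and not every late or early gene is like them, as counted below. The 150 bases directly upstream of the annotated gene start were read from the RefSeq assembly TAIR10.1 and are printed 5′ to 3′ on the strand of the gene. Capitals mark the MSA core AACGG, or its reverse complement CCGTT where the core lies on the other strand. CYCB1;2 (AT5G06150, chr5:1861704-1861853, minus strand) had 4 cores, and CYCB1;1 (AT4G37490, chr4:17624309-17624458, minus strand) and CYCB2;2 (AT4G35620, chr4:16901446-16901595, plus strand) are shown as other B-type cyclins. KNOLLE (AT1G08560, chr1:2711001-2711150, minus strand), AUR1 (AT4G32830, chr4:15842293-15842442, plus strand) and AUR2 (AT2G25880, chr2:11038192-11038341, minus strand) had 1 core each. The early cyclin CYCD2;1 (AT2G22490, chr2:9556168-9556317, minus strand) had none.
CYCB1;2: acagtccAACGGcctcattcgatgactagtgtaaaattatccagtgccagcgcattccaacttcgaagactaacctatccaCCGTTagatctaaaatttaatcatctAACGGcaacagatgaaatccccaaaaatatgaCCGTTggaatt
CYCB1;1: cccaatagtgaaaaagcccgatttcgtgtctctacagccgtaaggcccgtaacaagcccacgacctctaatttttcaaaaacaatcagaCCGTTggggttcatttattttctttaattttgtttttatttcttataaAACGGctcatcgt
CYCB2;2: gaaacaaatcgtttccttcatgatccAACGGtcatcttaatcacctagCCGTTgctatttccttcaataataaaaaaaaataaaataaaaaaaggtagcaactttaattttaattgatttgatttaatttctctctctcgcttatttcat
KNOLLE: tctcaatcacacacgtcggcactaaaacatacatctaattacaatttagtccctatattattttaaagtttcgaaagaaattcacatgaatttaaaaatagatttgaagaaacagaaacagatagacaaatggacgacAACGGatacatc
AUR1: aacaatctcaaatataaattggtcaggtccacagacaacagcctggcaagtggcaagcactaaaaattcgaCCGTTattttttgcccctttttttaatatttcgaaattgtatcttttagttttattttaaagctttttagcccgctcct
AUR2: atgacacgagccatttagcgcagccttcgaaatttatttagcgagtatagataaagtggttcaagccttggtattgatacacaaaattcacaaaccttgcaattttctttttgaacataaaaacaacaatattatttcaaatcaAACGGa
CYCD2;1: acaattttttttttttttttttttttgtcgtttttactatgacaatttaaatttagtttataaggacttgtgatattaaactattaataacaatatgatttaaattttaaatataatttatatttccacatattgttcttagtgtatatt

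Over the full 300 bases read for each gene, the MSA core occurred on either strand in 14 of the 22 G2 and mitotic genes, in 1 of the 2 S-phase cyclins and in 2 of the 13 G1 regulators. The same letters were found in 23.4% of the 27443 protein-coding promoters of equal length. The E2F site TTCCCGC was in none of the 37 genes and in 1.3% of all promoters, its variant TTGGCGC was in CYCD3;3 alone and in 0.9% of all promoters, and TGGGCC, the site II element, was in 1 gene of each phase and in 14.6% of all promoters. These are matches of letters in a window, not binding sites.

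The summed level of the late genes varied over the 16 groups by a wider margin than that of the G1 regulators. In WT control seedlings the 22 G2 and mitotic genes summed to 105.5, 110.8 and 106.9 FPKM, and under S+HS they summed to 59.98, 40.91 and 45.46 FPKM, with no overlap. The 13 G1 regulators summed to 121, 115.6 and 124.2 FPKM in the same control libraries and to 138.1, 120.8 and 120.4 FPKM under S+HS. Group means of the late sum ran from 40.51 FPKM in labelled rap2.3 EL+HS to 120.5 in labelled rap2.3 S. Those of the G1 sum ran from 81.56 to 142.9 FPKM between the same groups, and those of the S-phase cyclins from 1.65 to 14.76 FPKM.

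**Figure D1:**
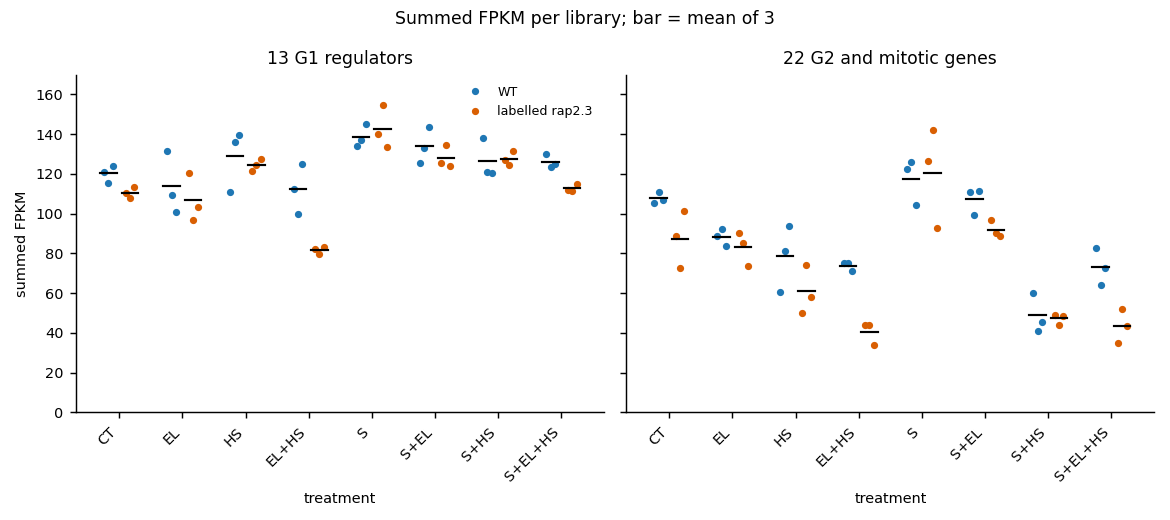
Summed FPKM of the 13 G1 regulators and of the 22 G2 and mitotic genes in each of the 48 libraries, by treatment and genotype. The late sum lay between 72.6 and 142 FPKM in the 24 libraries without heat and between 33.7 and 93.9 FPKM in the 24 with heat.

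On the FPKM scale, which is per length and so can be set between genes, the late genes of WT control seedlings were led by 4 genes. KNOLLE had 16.8, 19 and 19.7 FPKM, CDKB2;1 had 11.5, 14.4 and 13.9, CYCB1;2 had 9.95, 11.1 and 9.46, and AUR2 had 8.66, 7.93 and 7.64. These 4 did not overlap with their neighbours, but the places of KNOLLE and AUR2 are uncertain, since they share 31.04% and 34.12% of their 50-base exon words with a gene on the opposite strand. AUR1 at 4.62, 6.47 and 5.17 FPKM overlapped with CDKB2;2 at 7.01, 5.21 and 5.58, and the rest lay lower. Of the G1 regulators, CYCD3;2 at 31.8, 26.7 and 32.6 FPKM and CDKA;1 at 27.5, 28.1 and 25.4 were the highest and overlapped, while E2FB had 3.81, 3.09 and 2.76 FPKM and E2FA had 2, 3.48 and 3.61.

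The balance between the phases was taken as the mean log2(FPKM + 1) of the late genes minus that of the G1 regulators. It was -0.41, -0.41 and -0.46 in the WT control libraries and stood at -0.39 ± 0.14 (SD, n = 3) under S and -0.43 ± 0.10 under S+EL. Under EL it was -0.81, -0.47 and -0.59, each below the control libraries. It was also lower in every WT group with heat, at -0.73 ± 0.12 under HS, -0.74 ± 0.09 under EL+HS, -0.72 ± 0.14 under S+EL+HS and -1.07 ± 0.07 under S+HS. In the libraries labelled rap2.3 it was -0.52 ± 0.16 in the control and -0.51 ± 0.11 under EL. With heat it was -0.93 ± 0.22 under HS, -1.04 ± 0.10 under EL+HS, -1.10 ± 0.08 under S+HS and -1.12 ± 0.15 under S+EL+HS. The HS libraries, at -1.13, -0.69 and -0.97, met those of the control, at -0.47, -0.69 and -0.40. Whole seedlings were pooled, so fewer dividing cells and less RNA per dividing cell cannot be told apart in any value given here.

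Heat gave more calls among the late genes than salt or light. Averaged over salt, light and genotype, 18 of the 21 tested late genes fell with heat and none rose, and among all 35 tested genes 27 fell and 1 rose. Of all 21322 genes tested, 39.6% fell and 22% rose. The median log2 effect of heat was -0.56 for the late genes, -0.16 for the 12 tested G1 regulators and -0.08 for all genes. Among the 10530 genes with a mean FPKM in the range of the late genes (0.578 to 11.1), 38.9% fell, 17.7% rose and the median was -0.10.

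CYCB1;2, a B1 cyclin of the G2 to M transition, showed the largest effect of heat of the 35 genes on the log2(FPKM + 1) scale. By the ratio of mean FPKM it was 2.93-fold lower, and CYCB1;1 (3.52-fold) and CYCA3;1 (3.03-fold) fell further. CYCB1;2 had 4.99, 8.29 and 11.7 FPKM (lowest, median, highest) in the 24 libraries without heat and 0.508, 2.58 and 7.95 FPKM in the 24 with heat. The effect was -1.40 ± 0.07 (SE) on the log2(FPKM + 1) scale, with a limma adjusted p of 2.30e-18, and all 8 pairs of groups that differ only in heat moved the same way. KNOLLE had 9.01, 15.3 and 22.3 FPKM without heat and 2.7, 6.27 and 12.9 FPKM with it, an effect of -1.19 ± 0.07 (adjusted p = 2.15e-16) in the same direction in 8 of 8 pairs. Its mean level was 2.38-fold lower with heat. KNOLLE overlaps the gene NPQ1 (AT1G08550) by 464 bases on the opposite strand, NPQ1 was the more abundant at 24.9 to 89.5 FPKM and also fell with heat, by 0.60 (adjusted p = 1.43e-11), and the strand setting of the counting is not given, so the KNOLLE values are uncertain to that extent.

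The remaining B-type cyclins moved with these. CYCB1;4 fell, at -1.10 ± 0.09 on the log2 scale, CYCB1;1 and CYCB2;4 fell by 1.00 ± 0.09 each and CYCB1;3 by 0.77 ± 0.08. CYCB2;2 fell by 0.72 ± 0.08, and the 3 others by 0.34 to 0.46. By the ratio of mean FPKM those 3 were 1.92-fold (CYCB2;1), 1.86-fold (CYCB3;1) and 1.47-fold (CYCB2;3) lower. All 9 B-type cyclins therefore passed the test.

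Among the plant-specific B-type kinases, the CDKB2 pair, whose transcripts peak in G2 and mitosis, fell by 0.77 ± 0.08 (CDKB2;2) and 0.72 ± 0.08 (CDKB2;1). The CDKB1 pair fell by 0.66 ± 0.10 (CDKB1;2) and 0.29 ± 0.09 (CDKB1;1). CDKB2;1 had 6.37, 11.1 and 17.2 FPKM without heat and 2.8, 6.78 and 11.9 FPKM with it. Of the Aurora kinases, AUR1 fell by 0.56 ± 0.07 (adjusted p = 2.29e-08), AUR2 by 0.34 ± 0.08 and AUR3, which acts at centromeres, by 0.24 ± 0.08. The A2-type cyclins, partners of CDKB1 that restrain endoreduplication, did not pass: the 3 that could be tested had effects of -0.13, -0.08 and -0.01. CYCA1;1 fell by 0.41 ± 0.09.

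Because 13 of the 37 genes overlap another gene on the opposite strand, the late genes without such an overlap were also counted. Of these 13 genes 12 were tested, 10 fell with heat, none rose, and the median effect was -0.59. AUR1 shares 16.50% of its 50-base exon words with other genes and overlaps PFK6, which fell with heat by 0.27 (adjusted p = 5.74e-04). CDKB1;2 shares 14.28% and overlaps AT2G38630, which fell by 0.47 (adjusted p = 2.98e-08). For CYCB1;2 the share was 11.23%, with AT1G34460, which had at most 1.34 FPKM and rose with heat by 0.19.

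**Figure D2:**
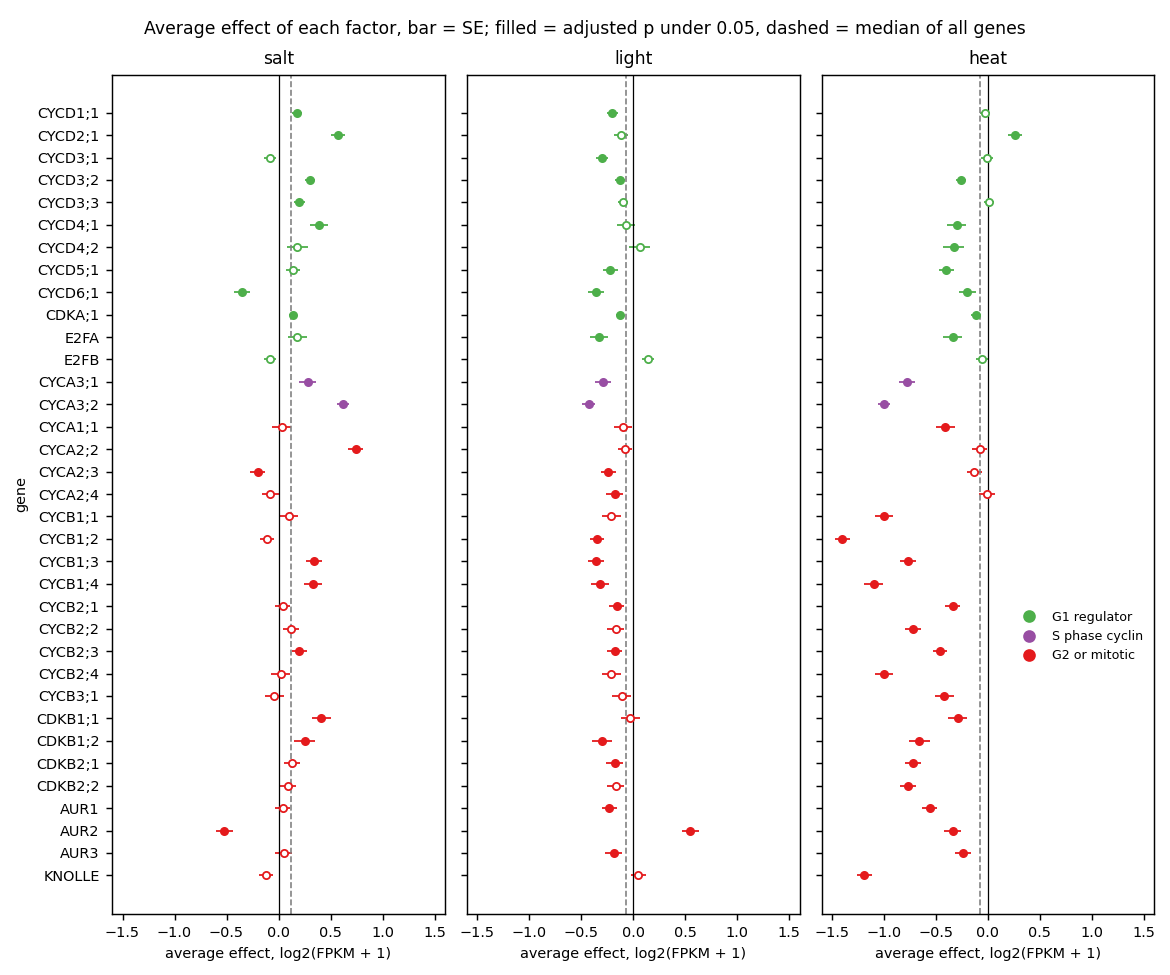
Average effect of salt, light and heat on log2(FPKM + 1) for the 35 tested genes over 48 libraries, with bars of 1 SE. Filled points passed an adjusted p of 0.05, and the dashed line is the median of all genes tested. With heat, 18 of 21 late genes lie to the left of 0 with filled points, and CYCD2;1 is the only filled point to the right.

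Both S-phase cyclins followed heat, light and salt. CYCA3;2 (AT1G47210), an A3-type cyclin of the G1 to S transition, had 6.27, 7.11 and 7.02 FPKM in WT control libraries, 1.8, 2.58 and 3.31 under HS and 10.2, 11.8 and 11.2 under S, with no overlap between the 3 groups. It fell with heat by 1.00 ± 0.06 (adjusted p = 2.81e-16), fell with light by 0.43 ± 0.06 (adjusted p = 4.28e-07) and rose with salt by 0.62 ± 0.06 (adjusted p = 8.60e-11). CYCA3;1 (AT5G43080) fell with heat by 0.78 ± 0.08 and with light by 0.29 ± 0.08, and rose with salt by 0.28 ± 0.08.

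The G1 regulators were less uniform under heat, with 7 of 12 lower and 1 higher. Among the 15197 genes in their range of mean FPKM, 40.0% fell and 20.9% rose. CYCD2;1, a D-type cyclin that responds to sugar supply, was the gene that rose. It had 9.01, 9.05 and 13.6 FPKM in WT control libraries, 14.3, 17.6 and 17.8 under HS and 23.4, 18.1 and 19.9 under S+HS. The 3 groups did not overlap, and the average effect of heat was 0.26 ± 0.07 (adjusted p = 0.00156), higher in 6 of 8 pairs. CYCD5;1 (AT4G37630) fell by 0.40 ± 0.07 in 8 of 8 pairs and E2FA, an activating E2F factor, by 0.34 ± 0.09. CYCD3;2, the most abundant D-type cyclin at a mean of 27.2 FPKM over 48 libraries, fell by 0.26 ± 0.05.

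The kinase CDKA;1 (AT3G48750) was among the steadiest genes of the group. It ranged from 17.5 to 34.2 FPKM over the 48 libraries, and fell with heat by 0.12 ± 0.04 (adjusted p = 0.0185), a call that was lost when libraries were rescaled to a common median (adjusted p = 0.254). E2FB, CYCD1;1, CYCD3;1 and CYCD3;3 had average effects of heat between -0.06 and 0.01 and did not pass.

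E2FA and E2FB were called in different treatments, but the genes were not tested against each other. E2FA had 2, 3.48 and 3.61 FPKM in WT control libraries and 1.17, 1.75 and 1.15 under EL+HS, without overlap, a change of -0.76 ± 0.23 (adjusted p = 0.0177) that lost its call in 4 of 11 alternatives, each leaving out 1 library. In labelled rap2.3 it had 2.67, 2.32 and 2.86 FPKM in the control and 0.427, 1.04 and 1.56 under EL+HS, a change of -0.89 ± 0.26 (adjusted p = 0.00973), again without overlap. E2FB had 3.05, 3 and 3.89 FPKM under EL+HS in WT, which overlapped the control, and its change of 0.03 ± 0.19 did not pass (adjusted p = 0.917). In labelled rap2.3 it had 3.38, 2.6 and 2.38 FPKM in the control and 3.62, 5.84 and 3.99 under EL, a change of 0.52 ± 0.17 (adjusted p = 0.048) that lost its call in 8 of 11 alternatives, with adjusted p up to 0.238. Its effect of heat was lower with excess light than without, by 0.44 (adjusted p = 0.00662 for the departure from additivity).

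**Figure D3:**
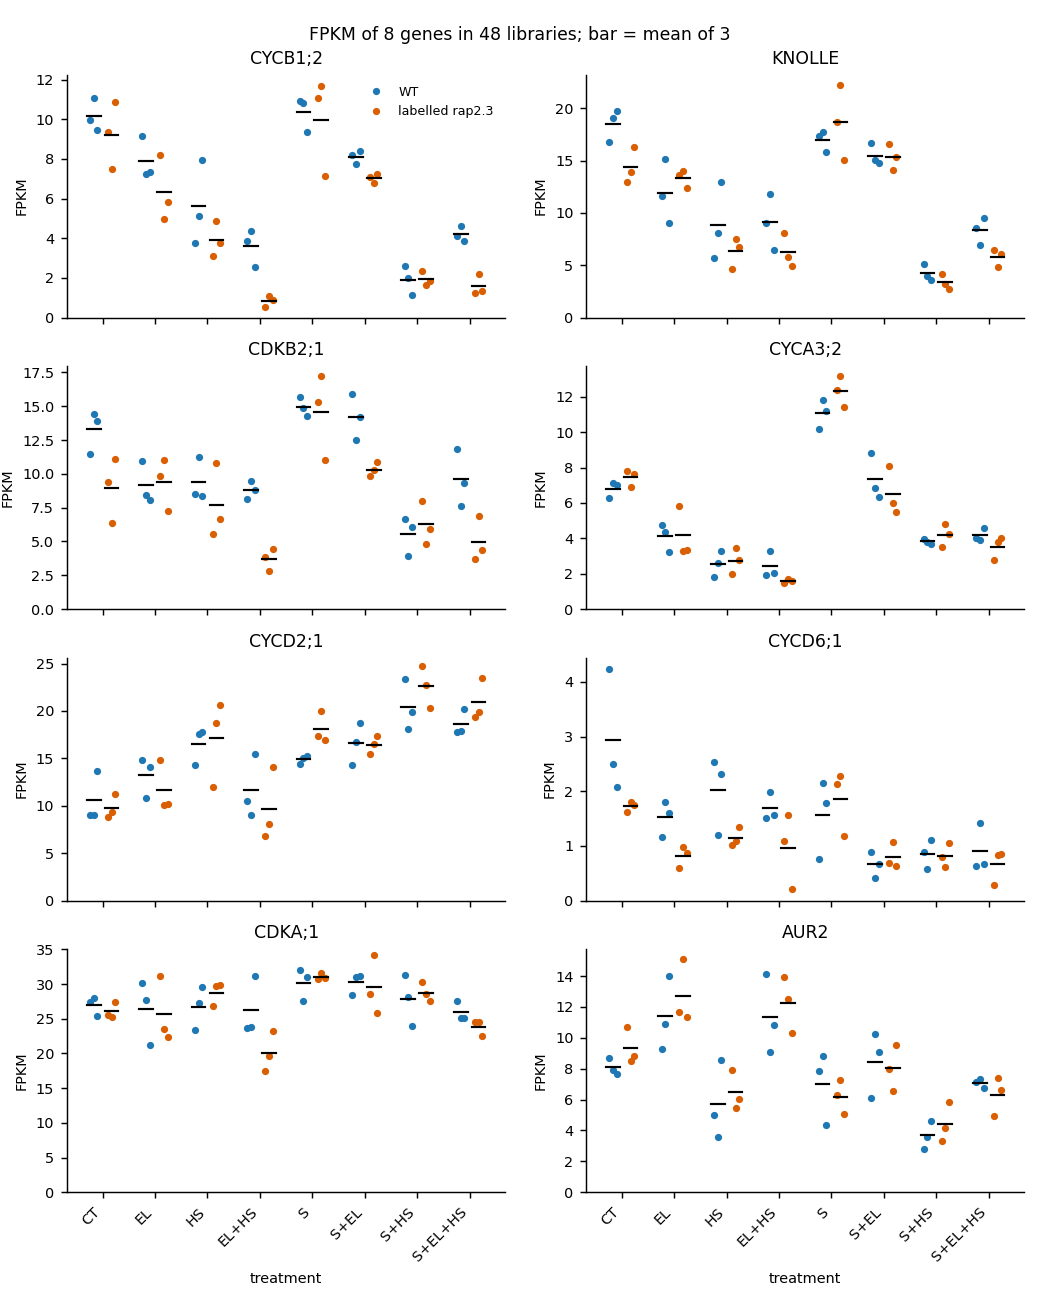
FPKM of 8 genes in each of the 48 libraries by treatment and genotype. CYCB1;2 ranges from 0.508 to 11.7 FPKM and KNOLLE from 2.7 to 22.3, both lowest in groups with heat, while CDKA;1 stays between 17.5 and 34.2 FPKM.

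Set against the control of each genotype, the separate treatments showed which combinations carried these effects. HS alone lowered 8 of 35 genes and raised 2 in WT (all genes 15.7% lower, 15% higher), and did the same in labelled rap2.3 (all genes 14.2% lower, 15.7% higher). Of the 8 lowered genes 6 were shared by both genotypes, namely CYCD5;1, CYCA3;2, KNOLLE and 3 B1 cyclins. KNOLLE had 16.8, 19 and 19.7 FPKM in WT control and 5.7, 8.04 and 12.9 under HS, without overlap, a change of -1.04 ± 0.22 (adjusted p = 0.00128). The 2 genes raised in WT were CYCD1;1 and CYCD2;1, and those in labelled rap2.3 were CYCD2;1 and CYCD3;3.

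S+HS gave the most calls in WT. It lowered 17 genes and raised 2 there (all genes 18.9% lower, 26% higher), and 14 of the 21 late genes were among the lowered. Their median change was -0.83 against -0.06 for the G1 regulators and 0.07 for all genes, and among the 10691 genes of like FPKM 15.4% were lower. CYCB1;2 went from 9.95, 11.1 and 9.46 FPKM to 2.59, 2.01 and 1.13 FPKM, a change of -1.97 ± 0.20 (adjusted p = 1.86e-07) and a mean 5.32-fold lower. KNOLLE went to 5.14, 4.02 and 3.61 FPKM, a change of -1.90 ± 0.22 (adjusted p = 1.03e-06). CDKB2;1 went from 11.5, 14.4 and 13.9 FPKM to 6.63, 3.89 and 6.06 FPKM, a change of -1.15 ± 0.17 (adjusted p = 1.73e-05). None of these groups overlapped. Without the genes that overlap another on the opposite strand, 8 of 12 late genes were lower, with a median of -0.87. The same treatment of labelled rap2.3 lowered 11 genes and raised 2 (all genes 15.7% lower, 27.2% higher), 8 of the lowered being late genes, with a median change of 0.13 over all genes. KNOLLE there fell by 1.82 ± 0.18 (adjusted p = 1.45e-07).

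EL+HS without salt lowered 13 genes and raised none in WT (all genes 19.4% lower, 12% higher). It lowered 23 and raised none in labelled rap2.3 (all genes 30.8% lower, 11.1% higher), and the 13 lowered in WT were all among these. In labelled rap2.3 the median change of all genes was itself -0.22. After rescaling, 16 genes were lower and 1 higher there, and the split over all genes went from 6344 lower and 2277 higher to 3574 and 3946. CYCB1;2 went from 9.35, 7.49 and 10.8 FPKM to 0.508, 1.08 and 0.865 FPKM, a change of -2.49 ± 0.21 (adjusted p = 4.70e-08) and a mean 11.27-fold lower. CYCB1;4 went from 4.3, 2.05 and 5.04 FPKM to 0.133, 0.245 and 0.188 FPKM, a change of -1.96 ± 0.27 (adjusted p = 1.50e-05). CYCB1;1 was listed at 0 in 1 of the 3 treated libraries.

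The triple stress S+EL+HS lowered 11 genes and raised 2 in WT (all genes 16.3% lower, 23.6% higher). This count of 13 was 8 without WT CT replicate 1, 7 without WT CT replicate 3 and 8 without WT S+EL+HS replicate 3. In labelled rap2.3 it lowered 15 and raised 3 (all genes 20.19% lower, 22.5% higher). The lowered genes shared by both genotypes numbered 9, and included both S-phase cyclins, both CDKB2 kinases and KNOLLE. KNOLLE went from 16.8, 19 and 19.7 FPKM to 8.57, 6.92 and 9.51 FPKM in WT, which was above all 3 WT libraries of S+HS. The gene raised with the largest change was CYCD2;1, by 0.78 ± 0.18 in WT and 1.02 ± 0.21 in labelled rap2.3.

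Among the Aurora kinases, AUR1 and AUR3 passed in some treatments of labelled rap2.3. A difference from WT in the response was not shown for either, as no genotype interaction passed without pairing by replicate number. AUR1, a kinase of the spindle and the cell plate, had 5.41, 4.19 and 7.15 FPKM in the control and 1.64, 2.67 and 2.25 under S+EL+HS, without overlap, a change of -1.03 ± 0.24 (adjusted p = 0.00162). Under EL+HS it had 3.94, 3.15 and 1.34 FPKM, all below the control, a change of -0.83 ± 0.24 (adjusted p = 0.00858). In WT the changes of AUR1 under the same treatments, -0.35 and -0.17, did not pass (adjusted p = 0.094 and 0.457). AUR3 rose under salt alone, from 1.06, 1.24 and 1.39 FPKM to 2.58, 3.28 and 2.29 FPKM, by 0.73 ± 0.22 (adjusted p = 0.0199). After rescaling the change was 0.58 and the call was lost, as it was in 4 more of the 11 alternatives, with adjusted p up to 0.0984. In WT it had 2.26, 1.72 and 2.12 FPKM in the control and 1.56, 2.17 and 1.49 under salt, which overlapped.

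**Figure D4:**
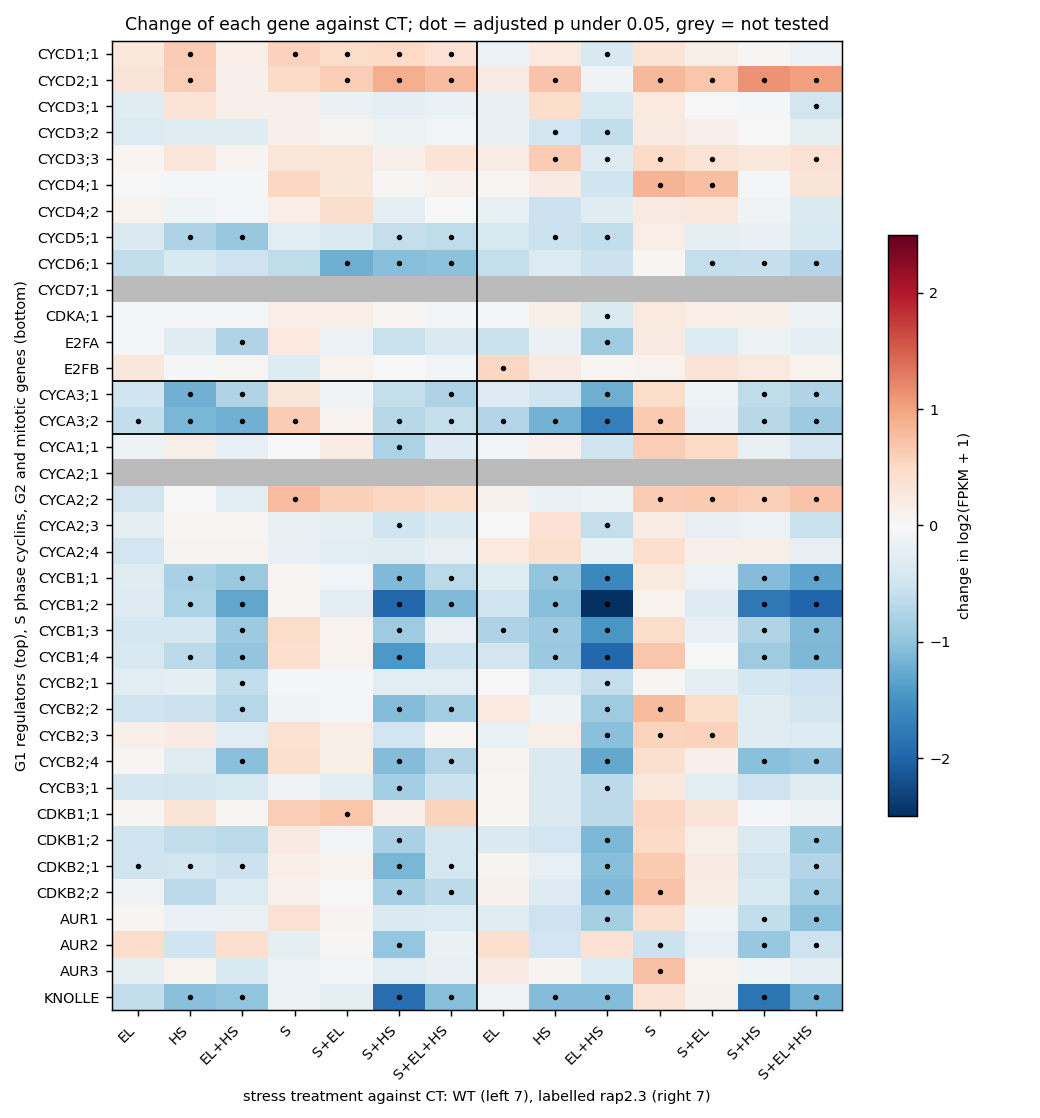
Heat map of the log2 change of the 37 genes (rows, by phase) in the 14 comparisons of a treatment with its own control (columns), with a dot where the adjusted p was under 0.05 and grey for the 2 untested genes. Columns with heat hold most of the dots, 17 of them for lower genes in WT S+HS and 23 in labelled rap2.3 EL+HS.

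Treatments without heat called 2 to 10 genes each, and those with heat 10 to 23. EL lowered 2 and raised none in WT (all genes 7.70% lower, 9.998% higher) and lowered 2 and raised 1 in labelled rap2.3 (all genes 6.67% lower, 7.61% higher). CYCA3;2 was the gene lower in both, and E2FB was the gene raised. The WT count was 1 without CT replicate 2 or replicate 3 and 0 without EL replicate 3. The labelled rap2.3 count of 3 was 5 without EL replicate 1, 0 without EL replicate 2 or replicate 3 and 1 without CT replicate 3.

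Salt alone raised 3 genes and lowered none in WT (all genes 13.6% higher, 5.17% lower). They were CYCD1;1, CYCA3;2 and CYCA2;2, with changes of 0.57 ± 0.12, 0.63 ± 0.17 and 0.78 ± 0.24. The CYCA2;2 call was lost in 7 of 11 alternatives, and the count was 1 without S replicate 2. In labelled rap2.3 salt raised 9 genes and lowered 1 (all genes 21.0% higher, 5.22% lower). The median change of all genes was 0.18 there, and rescaling gave 5 higher and 1 lower. That count of 10 was 6 without CT replicate 1, 3 without CT replicate 2 and 4 without S replicate 2. S+EL raised 3 and lowered 1 in WT (all genes 23.2% higher, 12.8% lower) and raised 5 and lowered 1 in labelled rap2.3 (all genes 23.2% higher, 11.6% lower). The latter count of 6 was 2 without CT replicate 1, CT replicate 2 or S+EL replicate 3 and 3 without S+EL replicate 2.

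The gene lowered by S+EL in both genotypes was CYCD6;1 (AT4G03270), which drives the formative division of the root ground tissue under SHR and SCR. It had 4.24, 2.51 and 2.08 FPKM in WT control and 0.895, 0.422 and 0.67 FPKM under S+EL, without overlap, a change of -1.22 ± 0.25 (adjusted p = 6.63e-04). In labelled rap2.3 the change of -0.60 (adjusted p = 0.0491) lost its call in 6 of 11 alternatives. Averaged over the design it fell with salt by 0.35 ± 0.08 and with light by 0.36 ± 0.08. It overlaps AT4G03260 on the opposite strand by 847 bases, a gene of 59.9 to 119 FPKM that fell with salt by 0.09 and rose with light by 0.35, and its values are uncertain for that reason.

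Averaged over light, heat and genotype, salt raised 14 of the 35 genes and lowered 3, against 46.8% higher and 16.2% lower of all genes, and the median effect was 0.13 for the 35 genes and 0.12 for all. After rescaling the genes split 9 higher to 8 lower, and all genes split 6272 to 6333 in place of 9983 to 3463. CYCA2;2 (AT5G11300) had the largest effect. It had 0.116, 0.828 and 1.97 FPKM in the 24 libraries without salt and 1.51, 1.98 and 3.02 FPKM with it, an effect of 0.74 ± 0.07 (adjusted p = 6.78e-11) in 8 of 8 pairs. CYCD2;1 had 6.78, 11.6 and 20.6 FPKM without salt and 14.3, 18 and 24.7 FPKM with it, an effect of 0.57 ± 0.07 (adjusted p = 7.52e-09) in 8 of 8 pairs. After rescaling both were still higher, by 0.64 and 0.42, as was CYCA3;2 by 0.49. CDKA;1 was higher by 0.14 as deposited and stood at -0.01 rescaled, so no direction can be given for it.

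AUR2 stood apart from the other late genes. It fell with salt by 0.52 ± 0.08 (adjusted p = 9.50e-07) and was the only gene of the 35 to rise with light on the deposited scale, where 20 fell (all genes 34.1% lower, 17.3% higher). It had 2.83, 6.17 and 10.7 FPKM in libraries without excess light and 4.93, 9.4 and 15.1 FPKM with it, an effect of 0.55 ± 0.08 (adjusted p = 6.19e-07) in 8 of 8 pairs. In WT it had 8.66, 7.93 and 7.64 FPKM in the control, 9.28, 10.9 and 14 under EL and 2.83, 3.58 and 4.62 under S+HS. AUR2 overlaps AT2G25890 by 877 bases on the opposite strand and shares 34.12% of its exon words with it. AT2G25890, at 1.25 to 14.1 FPKM, had an effect of light of -0.20 (adjusted p = 0.26) and fell with salt by 0.56 (adjusted p = 9.80e-04), so the AUR2 level is uncertain. Over the 16 group means AUR2 correlated with the mean of the other late genes at r = 0.05, AUR1 at 0.92 and AUR3 at 0.80, given as a description.

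On the late genes light had a smaller median effect than heat. It was -0.18 for the late genes, -0.13 for the G1 regulators and -0.07 for all genes, and 32.9% of the genes in the FPKM range of the late genes were lower. After rescaling 12 of the 35 genes were lower in place of 20, with 5 late genes among them in place of 11. E2FB joined AUR2 on the higher side, by 0.21. All genes split 5160 higher to 4774 lower after rescaling, in place of 3686 to 7274. CYCB1;3 fell by 0.36 ± 0.08, CYCB1;2 by 0.35 ± 0.07 and E2FA by 0.33 ± 0.09. CYCD3;1, a cyclin under cytokinin control, fell by 0.30 ± 0.06. Of the genes that fell, 7 were G1 regulators, 2 S-phase cyclins and 11 late genes.

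Combined factors departed from the sum of their separate effects in a minority of the genes. Salt with heat gave an extra fall in 5 genes and an extra rise in none (all genes 2.45% and 2.57%). They were KNOLLE at -0.64 (adjusted p = 0.00794), CYCA1;1 at -0.69 (0.023), CDKB2;1 at -0.51 (0.0452, a call lost in 33 of 52 alternatives), CYCD3;1 at -0.52 (0.00921) and CYCD1;1 at -0.33 (0.0329), each the effect of heat with salt minus that without. The count was 3 without WT HS replicate 2, WT S+HS replicate 2, labelled rap2.3 S replicate 2 or labelled rap2.3 S+HS replicate 2. Light with heat gave 3 positive and 3 negative departures (all genes 10.1% and 20.0%), and 4 and 2 after rescaling. KNOLLE was positive at 0.65 ± 0.15 (adjusted p = 7.26e-04). In WT, S+HS left it at 5.14, 4.02 and 3.61 FPKM and S+EL+HS at 8.57, 6.92 and 9.51. Those groups differ in light alone, so by themselves they do not show the departure. NPQ1, the more abundant gene on the opposite strand, departed in the same direction by 1.12 (adjusted p = 1.26e-09), and none of the 12 tested late genes without such an overlap departed. CYCD2;1 was negative at -0.52 (0.00433). Salt with light gave 3 positive departures and no negative one (all genes 5.42% and 4.16%), CYCB1;2 at 0.67, CYCB2;3 at 0.50 and KNOLLE at 0.44. The KNOLLE call (adjusted p = 0.0498) was lost in 38 of 52 alternatives, rescaling among them. This count was 6 without WT HS replicate 1 and 5 without labelled rap2.3 EL replicate 1 or HS replicate 1.

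Libraries labelled rap2.3 differed from WT at EL+HS. There 12 of the 35 genes were lower and none higher, against 6.97% lower and 0.417% higher of all genes. The median difference was -0.67 for the late genes, -0.35 for the G1 regulators and -0.14 for all genes. CYCB1;2 had 3.84, 4.35 and 2.57 FPKM in WT and 0.508, 1.08 and 0.865 in labelled rap2.3, a difference of -1.33 ± 0.21 (adjusted p = 4.59e-04). CDKB2;1 had 8.17, 9.44 and 8.83 FPKM in WT and 3.85, 2.8 and 4.43 in labelled rap2.3, a difference of -1.08 ± 0.22 (adjusted p = 0.00387). The other lower genes were 3 D-type cyclins, 2 A2-type cyclins, 3 B-type cyclins, the other CDKB2 kinase and AUR1, whose call (adjusted p = 0.0499) was lost in 9 of 12 alternatives. After rescaling 11 genes were lower and none higher, all genes split 492 higher to 562 lower in place of 89 to 1486, and a fit of these 6 libraries alone called none. The sum of the late genes was 75.22, 74.91 and 71 FPKM in WT and 43.72, 44.16 and 33.67 FPKM in labelled rap2.3, without overlap. Tissue markers moved with this difference. The root tissue markers summed to 23.59, 23.05 and 37.84 FPKM in WT and 14.61, 12.7 and 14.09 in labelled rap2.3, and 1 of 2 tested was lower. The shoot meristem markers summed to 22.98, 24.59 and 19.02 FPKM against 16.85, 15.36 and 12.56, and 1 of 4 tested was lower. Root meristem and stomatal lineage sums did not overlap either and were lower in labelled rap2.3, with 1 of 3 and none of 7 tested called, while the leaf tissue sums overlapped. The part of these markers in the difference was not tested.

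At the other treatments the genotypes were closer. No gene of the 35 passed at CT (0.0657% of all genes in either direction), EL (0.155%), HS (0.0188%), S (0.0234%), S+EL (0.0234%) or S+HS (0.0281%). In the same order, limma gave 5, 2, 3, 1, 0 and 0 of the 35 an unadjusted p under 0.05. Of all 21322 genes it gave 1096, 1714, 1009, 302, 481 and 908 such a p. Under S+EL+HS 1 gene passed (0.0610% of all genes), CYCB1;2 at -1.03 (adjusted p = 0.0249). This count of 1 was 2 without labelled rap2.3 S+EL+HS replicate 2 and 0 without any other of the 6 libraries. At the same treatment 17 of the 35 had an unadjusted p under 0.05 in limma, as did 2029 of all 21322 genes. Averaged over the 8 treatments, 15 genes were lower and none higher in labelled rap2.3 (all genes 9.41% lower, 0.858% higher), 13 of them late genes, led by CYCB1;2 at -0.42 ± 0.07 (adjusted p = 3.85e-04). After rescaling 13 of the 35 were lower and none higher. All genes then split 826 higher to 1406 lower in place of 183 to 2007. The mean takes in EL+HS, where 12 genes passed, and S+EL+HS, where CYCB1;2 stood at -1.03. It therefore does not show a difference at each treatment. Without pairing by replicate number, genotype interactions with salt, light, heat or triple stress passed for no gene in limma (0.00% of all genes each). There 4, 10, 9 and 4 of the 35 had an unadjusted p under 0.05, against 1299, 2073, 1174 and 965 of all 21322 genes. With the genotypes paired by number within a treatment, genotype by light passed for 2 of the 35, both lower. Over all genes 60 were then higher and 342 lower. Genotype by heat then passed for none of the 35 and for 6 of all genes. A different response of the lines was therefore not shown without pairing, and the calls with light depended on it.

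**Figure D5:**
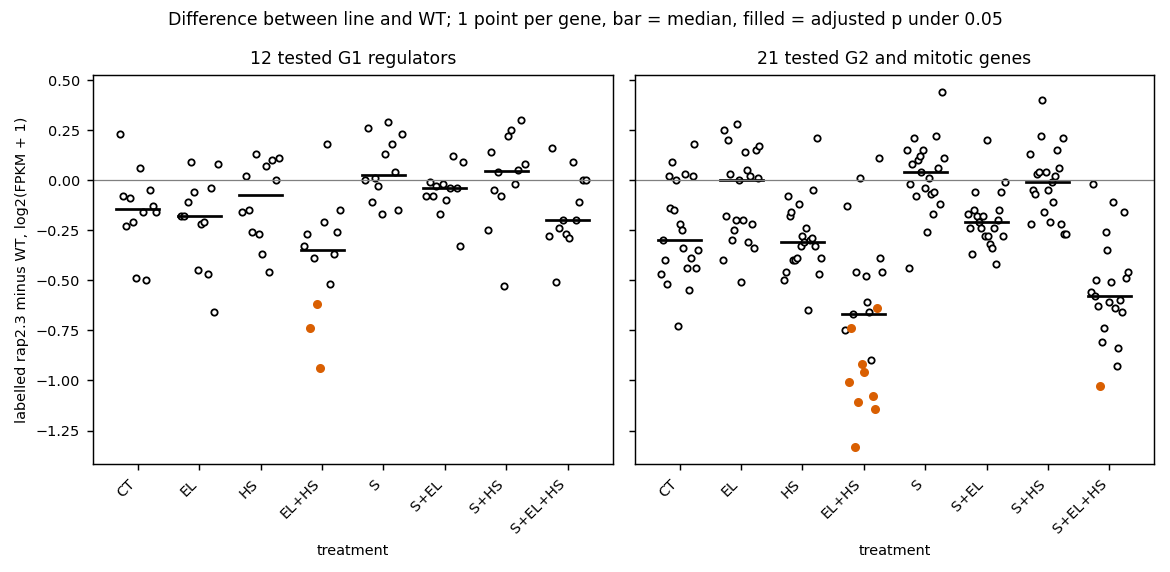
Labelled rap2.3 minus WT in log2(FPKM + 1) at each treatment for the 12 tested G1 regulators and 21 tested late genes, with a bar at the median. At EL+HS the medians were -0.35 and -0.67, and the late genes lie lowest there.

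Genes that act beside the 37 showed where the pattern extended. Of 8 other mitotic genes, 6 fell with heat and none rose (all genes 39.6% lower, 22% higher), among them the checkpoint gene MAD2 at -1.23, the spindle factor TPX2 at -1.12 and the phragmoplast kinesin HINKEL at -1.10. Of the 5 activators of the anaphase-promoting complex, which destroys mitotic cyclins, 4 fell, with CDC20.1 at -1.01 ± 0.08 (adjusted p = 1.67e-13). Of 12 DNA replication genes 9 fell and none rose, but by less, with a median of -0.27. TSO2, a ribonucleotide reductase subunit, was the largest of these at -0.69, with 16, 34.9 and 54.8 FPKM without heat and 11.5, 19.5 and 34.3 FPKM with it. Light lowered 11 of the 12 replication genes, by 0.18 to 0.46, and 6 of the 8 other mitotic genes, and raised none of either list (all genes 34.1% lower, 17.3% higher). In WT under S+HS, 5 of the 8 other mitotic genes, 3 of the 5 activators and 6 of the 12 replication genes fell, and none rose (all genes 18.9% lower, 26% higher). In labelled rap2.3 under EL+HS the counts of lower genes were 6, 4 and 10 (all genes 30.8% lower), with medians of -1.32, -1.07 and -0.77 against -0.22 for all genes. HINKEL had 2.6, 3.84 and 6.49 FPKM in the 24 libraries without heat and 0.304, 1.43 and 3.13 FPKM in the 24 with heat, and all 8 pairs of groups moved the same way.

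Lists of inhibitors and regulators held genes called in both directions. Of 17 CDK inhibitor genes 6 rose with heat and 2 fell, against 22% and 39.6% of all genes, with a median effect of -0.03 against -0.08 and no test of that difference. Among them were KRP7 higher by 0.65 and SIM higher by 0.21, and KRP1 lower by 0.45. One of the 6, AT1G07500, ranged from 0 to 49.5 FPKM and is not described further. With salt 7 rose and 2 fell, where 46.8% of all genes rose and 16.2% fell. The largest rise was that of AT5G02420, which had 0.293, 2.72 and 7.76 FPKM without salt and 3.76, 7.74 and 10.6 FPKM with it, a rise of 1.11 ± 0.11 (adjusted p = 2.39e-11). Of the 11 regulators of E2F and MYB3R type, 4 rose with heat and 5 fell, with a median of -0.06. MYB3R3 and MYB3R5, known as repressors of mitotic genes, rose by 0.66 and 0.58, and MYB3R4, known as an activator, fell by 0.45. MYB3R3 had 5.17, 6.67 and 12 FPKM without heat and 8.52, 11.6 and 16.8 FPKM with it. Of the 5 genes of the CDK-activating kinases, 3 rose and 1 fell, CDKD;1 by 0.89 ± 0.07 (adjusted p = 1.62e-13). All these effects are on the log2(FPKM + 1) scale over 48 libraries.

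Markers of tissues that hold dividing cells moved with some of these results. With heat, which lowered 39.6% of all genes and raised 22%, 1 of 3 tested root meristem markers fell (SCR, by 0.48) and none rose, and the 5 markers summed to 24, 29.5 and 33.5 FPKM without heat and 17.3, 21.7 and 30.9 with it. Of 4 tested shoot meristem markers 2 fell (CLV1 and KNAT1, by 0.31 each), and the 5 summed to 20.6, 25 and 36.4 FPKM without heat and 12.6, 22 and 27.5 with it. WUS was above 0 in 3 libraries and CLV3 in 10, PLT1 never exceeded 0.899 FPKM and PLT2 never 0.638. Both tested root tissue markers and all 3 leaf tissue markers fell with heat, and of 7 stomatal lineage markers 1 fell and 2 rose. With salt, which raised 46.8% of all genes and lowered 16.2%, all 7 stomatal lineage markers fell, FAMA by 0.81 and SPCH by 0.66, and their sum went from 22.6, 33.3 and 40.5 FPKM to 14.8, 18.3 and 22.9. Both tested root tissue markers rose with salt, COBL9 by 1.13 and PHO1 by 0.50, and the list summed to 10.8, 21.2 and 37.8 FPKM without salt and 22.5, 31 and 46.9 with it. The root meristem gene WOX5 rose by 0.86. The markers moved with heat and salt as the 37 genes did or against them, and their part in the values of the 37 genes was not tested.

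By pattern, most late genes resembled each other. Over the 16 group means, which share libraries and treatments, the correlation of each with the mean of the other late genes was 0.98 for CDKB2;1, 0.96 for CYCB1;2 and 0.86 for KNOLLE, and 0.25 for CYCA2;2. The tested G1 regulators ran from -0.10 for CYCD2;1 and -0.03 for E2FB to 0.76 for CYCD4;2, with E2FA at 0.72 and CDKA;1 at 0.70. The S-phase cyclins stood at 0.86 (CYCA3;1) and 0.81 (CYCA3;2). Late genes such as CDKB1;1 at 0.74 and CYCA2;4 at 0.50 were no higher than these, so the pattern was not particular to the late genes. Of 19255 genes outside the lists, the most similar to the late mean were ATK5 (AT4G05190), a kinesin, at 0.991, AT3G20150 at 0.988, AT4G14330 at 0.987, CSLD5 (AT1G02730), a cellulose synthase-like gene, at 0.981 and AT2G36200 at 0.981. RLK902, PDLP2, AT3G57060, AT5G60930 and AT5G66230 followed at 0.979 to 0.976. ATK5 had a mean of 6.03 FPKM in WT control and 1.9 under S+HS, and CSLD5 had 10.9 and 2.21.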

How the data were processed

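RNA from whole seedlings was measured in 48 libraries, 3 for each of 16 groups of genotype and treatment. The authors deposited FPKM values per gene in 1 table per genotype, and the submitters' processing notes name HISAT2, Cufflinks and the TAIR10 build. Versions, settings and the use of strand are not given in the sources used here. FPKM keeps no read counts, so depth and counting precision are unknown, and 8253 positive values lie under 1e-10, so a value of 0 may be a failed estimate (27 of the 1776 values of the 37 genes are 0).

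Values were taken as log2(FPKM + 1), a scale on which the fold change of low genes is understated. Genes with at least 1 FPKM in at least 3 libraries of a fit were tested with limma 3.58.1 (lmFit, eBayes with trend) in R 4.3.3, with Benjamini-Hochberg adjustment over all genes tested, and called at an adjusted p under 0.05. A treatment was compared with the control in a fit of the 24 libraries of a genotype. Average effects of salt, light and heat, departures from additivity, genotype differences and interactions came from a fit of all 48. An average effect is the mean of the 8 groups with a factor minus the mean of the 8 without, and a departure is the effect of a factor in the presence of another minus that in its absence. The fit was tested on simulated data. Figures and summaries were made with Python 3.11.15 and matplotlib 3.10.9. Upstream sequences came from RefSeq TAIR10.1 by gene identifier, and all 37 genes matched.

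The members and lists were chosen with earlier results of these data known, and so were the tests. Any of the 37 genes could be named. Beyond them, up to 6 called genes of a list, by size of effect, and the 10 genes of most similar group means were named. Alternatives were a pseudocount of 0.1, no filter, rescaling each library by its median ratio to the geometric mean of 19289 genes, a replicate block, fits of only the 6 libraries compared, and leaving out each library. Deviations of libraries with the same replicate number correlated above 0.1 in all 3 pairs between genotypes only at EL (0.103 to 0.52). The highest of the 3 was 0.357 at HS, 0.304 at S+EL, 0.267 at S+HS, 0.262 at S and at most 0.121 elsewhere. Only EL thus counted as paired by this limit, pairing at the other treatments was not settled, and the main fit used no pairing. Between a treatment and the control the range was -0.117 to 0.115. Libraries of a group are biological repeats per the labels, and 3 of them limit the precision of every mean.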

Additional observations from a re-analysis of the deposited data

How the results depend on the processing

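The 33 counts of called genes were recomputed under each alternative. Of the 255 calls for single genes, 145 held under every alternative run, and 1 changed sign: the effect of salt on CDKA;1, 0.14 as deposited, was -0.01 after rescaling. Most counts stayed within 1.5 times. With a pseudocount of 0.1, WT EL went from 2 to 1, labelled rap2.3 EL from 3 to 1, labelled rap2.3 S from 10 to 6 and labelled rap2.3 S+EL from 6 to 3. Without the filter on low values WT EL gave 1, and rescaling gave 6 for labelled rap2.3 S. In fits of only the 6 libraries compared, WT EL, labelled rap2.3 EL, and the genotype difference at EL+HS and at S+EL+HS gave 0 in place of 2, 3, 12 and 1, and labelled rap2.3 HS gave 6 in place of 10, in fits with fewer samples. With the replicate block WT EL gave 1. Where the block paired the genotypes within a treatment, S+EL+HS gave 3 in place of 1 and genotype by light gave 2 in place of 0. At EL, the only treatment above the limit of 0.1 in all 3 pairs, this block gave 0, as without it. It moved the genotype count at EL+HS from 12 to 18 and that for the mean of 8 treatments from 15 to 19. Over all genes at EL+HS the lower calls went from 1486 to 3587. No other genotype count moved. The cause was not tested for any of these.

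Leaving out 1 library at a time gave 0 to 3 calls for WT EL, 1 to 4 for WT S, 7 to 12 for WT S+EL+HS, 0 to 5 for labelled rap2.3 EL, 3 to 11 for labelled rap2.3 S, 2 to 5 for labelled rap2.3 S+EL, 2 to 6 for salt by light, 3 to 7 for salt by heat and 0 to 2 for the genotype difference at S+EL+HS. The counts for average heat (27 to 29), salt (16 to 19) and light (16 to 25) stayed within 1.5 times.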
